A study of Mus musculus with 4 samples.

Results

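Frame-preserving cassette exons are alternative exons whose length is a multiple of 3 nt, so that reading continues in the same frame whether the exon is kept or skipped. They were taken from the deposited splicing table as the rows with such a length whose vast-tools class is ANN, MIC, S, C1, C2 or C3. The rule gave 289 of the 1075 deposited events, in 265 genes, beside 260 cassette exons of other lengths, 311 retained introns and 215 alternative splice sites.

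RNA-seq had been run on 4 libraries of mouse endothelial cells (moEC). The 2 control libraries came from cells transduced with a lentiviral vector that carries only the HA tag. The 2 NOVA2-overexpressing libraries came from cells transduced with HA-tagged human NOVA2 behind the CMV promoter. Both were stable lines. The study states puromycin for the NOVA2-overexpressing cells and, for splicing analysis of NOVA2 targets, sparse seeding. It gives neither separately for the control cells. Whether the replicates were separate cultures or the lines single clones is not stated in the sources used here. The human protein was thus added under a viral promoter to mouse cells that hold their own Nova2 gene, and neither the level of NOVA2 nor the endothelial markers of these cells are analysed here, because the table holds splicing values alone.

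NOVA2 is an RNA-binding protein, best known from neurons and also present in the vascular endothelium, which binds pre-mRNA at short YCAY motifs (Y is C or T). Its effect depends on position: motifs in the exon or just before it are known for favouring skipping, and motifs in the intron after it for favouring inclusion. A cassette exon that keeps the frame adds or removes a peptide without changing the residues encoded after it, whereas an exon of another length shifts the frame and often brings a premature stop. Microexons, taken here as exons of 27 nt or less, encode a few residues each and are a well-known class of neuronal splicing.

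The microexons below are shown because the whole alternative peptide is encoded in them. They are the 17 microexons whose mean inclusion differed by 10 points or more between the groups, read 5′ to 3′ on the transcript strand of mm9, with the motif YCAY in capitals, that is TCAT or its forms with C in the first place, in the last place or in both. Such a motif was held by 4 of the 17, and the 3-nt exon of Cyth1 is too short to hold any. Inclusion was lower in NOVA2-overexpressing ECs for the first 10 and higher for the other 7.
Cyth1 exon of 3 nt, chr11:118041516-118041518, minus strand: gag
Macf1 exon of 9 nt, chr4:123063792-123063800, minus strand: aTCACagag
Nav3 exon of 21 nt, chr10:109156122-109156142, minus strand: gtgaactctagaggaagtgag
Ctage5 exon of 27 nt, chr12:60247323-60247349, plus strand: tttgttgaaggaTCACaaatatcagag
Sgce exon of 27 nt, chr6:4640469-4640495, minus strand: ggaaaagagagacatgcaaaccccaga
Iffo1 exon of 9 nt, chr6:125101813-125101821, plus strand: aagaagctg
Macf1 exon of 18 nt, chr4:123041300-123041317, minus strand: ttcttcctcggcaatcag
Supt5h exon of 12 nt, chr7:29115037-29115048, minus strand: aagagattgaag
Mark3 exon of 27 nt, chr12:112890169-112890195, plus strand: aaacatgTCATtcaggtttatcaaaag
Nav2 exon of 9 nt, chr7:56830617-56830625, plus strand: gtcaatgag
Rapgef6 exon of 24 nt, chr11:54485157-54485180, plus strand: gaagaagaggtggcggagtctggg
Ocrl exon of 24 nt, chrX:45309387-45309410, plus strand: gaagaagacagctacctagaaaag
Arntl exon of 21 nt, chr7:120424916-120424936, plus strand: acttgatgactttgcttttga
Spna2 exon of 15 nt, chr2:29869678-29869692, plus strand: ctttccaagctgttg
Exoc1 exon of 21 nt, chr5:76969772-76969792, plus strand: aactgcctaaagttacagaag
Kif3a exon of 9 nt, chr11:53404219-53404227, plus strand: accaagcag
Kif21a exon of 21 nt, chr15:90795406-90795426, minus strand: atctagatggcgccCCACcag

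The exons that follow are shown for the size of their difference or because the study selected them. Those shown for size were among the largest in short and long members with no library at the lowest coverage score. The exons differ in how many motifs they hold. Mtss1 held 8 motifs in its 195 nt, Phldb2 4, Magi1 and Lrch3 2 each, and Ptprm and Myo5a 1 each, while Sh3pxd2a held none. Capitals mark the same motif. Inclusion was lower with NOVA2 for the first 5 and higher for Ptprm and Magi1.
Lrch3 exon of 108 nt, chr16:32995892-32995999, plus strand: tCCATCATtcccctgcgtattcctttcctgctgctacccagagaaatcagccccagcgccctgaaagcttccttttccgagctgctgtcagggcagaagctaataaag
Sh3pxd2a exon of 84 nt, chr19:47357511-47357594, minus strand: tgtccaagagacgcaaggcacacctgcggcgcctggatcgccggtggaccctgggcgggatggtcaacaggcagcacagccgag
Phldb2 exon of 120 nt, chr16:45775081-45775200, minus strand: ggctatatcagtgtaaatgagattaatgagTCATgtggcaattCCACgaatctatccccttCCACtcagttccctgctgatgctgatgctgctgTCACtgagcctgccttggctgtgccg
Myo5a exon of 81 nt, chr9:75040191-75040271, plus strand: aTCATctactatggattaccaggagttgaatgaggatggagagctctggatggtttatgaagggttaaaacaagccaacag
Mtss1 exon of 195 nt, chr15:58778881-58779075, minus strand: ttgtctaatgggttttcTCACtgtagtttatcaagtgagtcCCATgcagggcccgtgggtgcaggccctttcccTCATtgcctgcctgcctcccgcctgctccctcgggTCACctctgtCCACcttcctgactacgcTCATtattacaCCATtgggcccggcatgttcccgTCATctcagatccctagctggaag
Ptprm exon of 51 nt, chr17:67046993-67047043, minus strand: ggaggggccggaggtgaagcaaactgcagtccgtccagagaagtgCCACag
Magi1 exon of 84 nt, chr6:93654271-93654354, minus strand: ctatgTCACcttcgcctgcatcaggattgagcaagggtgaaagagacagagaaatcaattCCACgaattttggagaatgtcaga

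The flanking introns below are shown because many motifs lie beside the exon, in members that passed the read test and changed by 10 points or more. The side was chosen by direction, so these examples do not show how often motif position goes with direction. Other exons differ. The gaining exon of Ptprm had 9 motifs before it and 2 after it, and the losing exon of Epn1 had 2 before it and 3 after it. For the lower exons the 200 nt just before the exon are given, which held 20 motifs in Supt5h, 12 in Slc9a5, 11 each in Uap1 and Ccdc88a and 9 before the 9-nt exon of Macf1. Those of Supt5h are for the most part 1 run of CCAC repeats, in which neighbouring motifs overlap by 1 base. For the higher exons the 200 nt just after the exon are given, or all 192 nt of it in Epb4.1l2. They held 13 motifs in Epb4.1l2, 10 in Ppfibp1 and 9 in Zfp202.
Supt5h upstream intron, chr7:29115049-29115248, minus strand: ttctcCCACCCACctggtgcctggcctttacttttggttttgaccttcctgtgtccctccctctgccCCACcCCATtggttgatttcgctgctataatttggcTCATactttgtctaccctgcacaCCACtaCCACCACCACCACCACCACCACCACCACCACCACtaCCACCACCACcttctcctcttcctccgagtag
Slc9a5 upstream intron, chr8:107885261-107885460, plus strand: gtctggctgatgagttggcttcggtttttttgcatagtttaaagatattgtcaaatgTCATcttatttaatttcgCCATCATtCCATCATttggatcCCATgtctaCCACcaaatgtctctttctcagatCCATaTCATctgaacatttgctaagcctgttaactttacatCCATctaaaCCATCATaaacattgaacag
Uap1 upstream intron, chr1:172078175-172078374, minus strand: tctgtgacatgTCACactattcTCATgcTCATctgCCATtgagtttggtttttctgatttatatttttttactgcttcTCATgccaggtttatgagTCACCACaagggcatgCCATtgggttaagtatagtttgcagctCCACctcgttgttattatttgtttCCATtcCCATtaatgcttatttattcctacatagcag
Ccdc88a upstream intron, chr11:29398209-29398408, plus strand: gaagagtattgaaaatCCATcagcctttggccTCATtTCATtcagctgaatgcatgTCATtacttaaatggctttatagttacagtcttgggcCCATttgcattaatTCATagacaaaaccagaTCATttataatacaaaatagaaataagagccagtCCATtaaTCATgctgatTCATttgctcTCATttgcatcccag
Macf1 upstream intron, chr4:123063801-123064000, minus strand: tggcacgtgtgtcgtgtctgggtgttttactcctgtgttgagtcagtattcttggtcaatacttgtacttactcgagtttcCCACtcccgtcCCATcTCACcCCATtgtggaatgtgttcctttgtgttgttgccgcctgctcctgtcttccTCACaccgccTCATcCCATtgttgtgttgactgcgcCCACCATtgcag
Epb4.1l2 downstream intron, chr10:25221438-25221629, plus strand: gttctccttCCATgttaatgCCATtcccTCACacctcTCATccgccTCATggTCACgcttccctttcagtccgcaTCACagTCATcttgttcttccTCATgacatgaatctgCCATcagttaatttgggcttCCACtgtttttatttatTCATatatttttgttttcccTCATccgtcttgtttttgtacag
Ppfibp1 downstream intron, chr6:146948217-146948416, plus strand: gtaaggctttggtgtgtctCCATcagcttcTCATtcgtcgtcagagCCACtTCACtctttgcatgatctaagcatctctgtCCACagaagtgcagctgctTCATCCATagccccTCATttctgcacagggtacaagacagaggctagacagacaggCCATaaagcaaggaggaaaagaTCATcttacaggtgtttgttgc
Zfp202 downstream intron, chr9:40018146-40018345, plus strand: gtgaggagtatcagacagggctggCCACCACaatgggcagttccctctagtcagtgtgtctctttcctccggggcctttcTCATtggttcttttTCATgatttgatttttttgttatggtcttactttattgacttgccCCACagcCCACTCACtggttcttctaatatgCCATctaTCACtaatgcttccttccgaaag

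Of the 289 exons, 114 had a higher and 175 a lower percent spliced in (PSI) in NOVA2-overexpressing than in control ECs. PSI is the share of junction reads that include the exon, and the dPSI is the mean PSI with NOVA2 minus the mean PSI in control ECs, in points. A dPSI of 10 points or more in either direction was reached by 166 exons. Higher PSI was found for 65 of these, or 22.5% of the members, where the background over all 1075 deposited events was 33.0%. Lower PSI was found for 101, or 34.9%, against a background of 20.1%. Alternative splice sites are listed with higher PSI alone, and without them the background was 26.7% higher and 25.1% lower. Among the frame-shifting cassette exons the shares were 16.9% higher and 31.2% lower.

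The reads behind each exon were compared by Fisher's exact test on inclusion and exclusion reads, two-sided, after adding up the 2 libraries of a group, with Benjamini-Hochberg adjustment over all 1075 events. An adjusted p under 0.05 was obtained for 219 members, or 75.8%, where the background over all events was 55.9%. With higher PSI 80 members passed (27.7%, background 30.7%), and with lower PSI 139 passed (48.1%, background 25.2%). Of the frame-shifting cassette exons 166 of 260 passed, and 23.5% of the 260 did so with higher and 40.4% with lower PSI. The backgrounds by direction include the 215 alternative splice sites, of which 91 passed, all with higher PSI. These raise the background for higher PSI and reduce that for lower PSI. A quasi-binomial regression, which uses the spread between replicates, called 78 of the 289 members at an adjusted p under 0.05, where the background over all events was 18.7%. That spread is estimated for each exon from 4 libraries, so replicates that happen to lie close favour a pass. Of the 40 exons described by length class or as selected by the study that passed the read test, 8 passed this regression, namely the 9-nt exon of Macf1 and those of Supt5h, Mark3, Cast, Arhgef12, Epn1, Phldb2 and Tmc8. Coverage also differed between frame-preserving and frame-shifting exons. The library with the fewest reads had a median of 94 reads over the frame-preserving and 49 over the frame-shifting exons. The part of coverage in the share of calls was not tested.

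Every deposited event had already been chosen by the authors for a gap of more than 5 points between each library of one group and each of the other, and the smallest gap among the members was 5.02 points. That the groups do not overlap is therefore no finding, and the adjusted p is no false discovery rate. It compares these libraries and leaves out the variation between cultures. With 2 libraries against 2 an exact permutation test of 1 exon cannot give a two-sided p below 0.333.

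Within a group the libraries differed by a median of 1.78 PSI points (control) and 1.86 points (NOVA2) over the members, while the median absolute dPSI was 10.9 points. Over all 1075 events, Fisher's exact test gave an unadjusted p under 0.05 between the replicates of a group for 17 events in control and 28 in NOVA2-overexpressing ECs. Events with separated groups are by construction those with close replicates, so whether the replicates were separate cultures cannot be told from these values. Control replicates 1 and 2 held 62950 and 78874 reads over the members, against 96337 and 91584 in replicates 1 and 2 of NOVA2-overexpressing ECs. Each library gave between 10 and 3232 reads per exon, and the lowest vast-tools coverage score, VLOW, was given to 35, 21, 11 and 12 members in the same order. Of the 137 members scored SOK, the highest score, in all 4 libraries, 37 had higher and 100 lower PSI, and 133 passed the read test. With OK as the lowest score, 40 were higher and 40 lower, and 52 of these 80 passed. With LOW as the lowest score, 13 were higher and 16 lower, and 16 of these 29 passed. Among the 43 members with a VLOW library, 24 were higher and 19 lower, and 18 passed. The excess of lower exons thus lay mainly among the members scored SOK throughout, and the part of coverage in it was not tested.

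The 2 directions started from different levels. Exons that lost 10 points or more had a median PSI of 84.6% in control ECs and 69.8% in NOVA2-overexpressing ECs, and 57 of the 101 lay above 80% in control ECs. Exons that gained 10 points or more went from a median of 33.9% to 50.3%, with 19 of the 65 below 20% and 13 above 80% in control ECs. The starting level of the gaining exons rose with length, with control medians of 10.2% for microexons, 33.9% for short and 61.1% for long exons, of which 9 of 24 lay above 80%. The room left on the percent scale differs between such starting levels, and its part in this pattern was not tested.

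**Figure D1:**
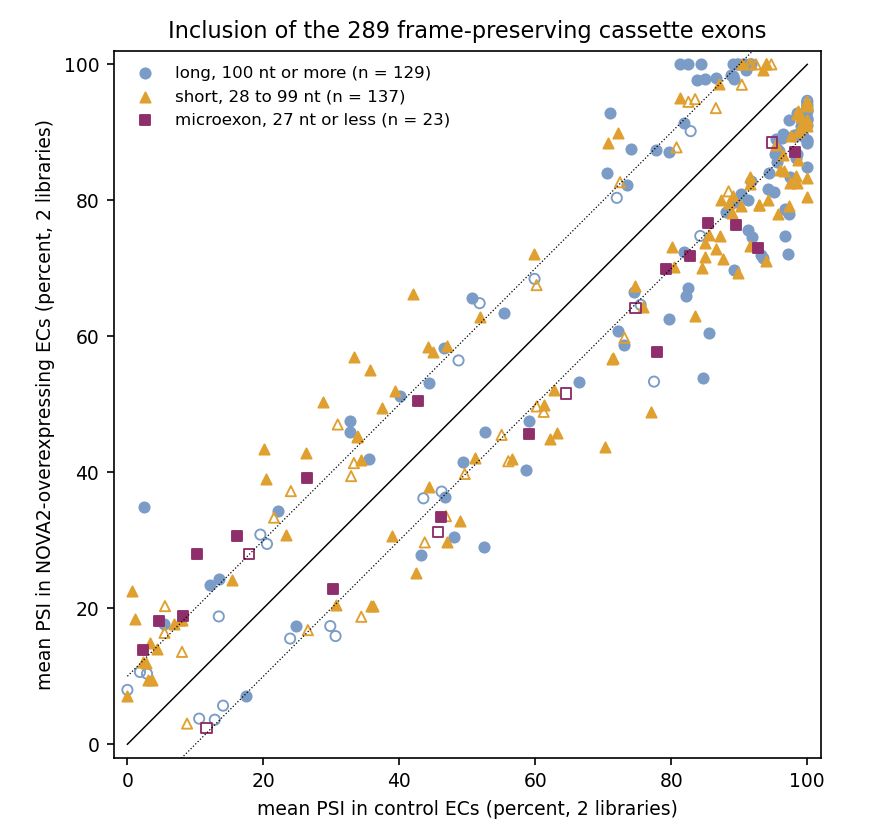
Mean PSI of each of the 289 frame-preserving cassette exons in control ECs (horizontal axis, percent) and in NOVA2-overexpressing ECs (vertical axis, percent), with 2 libraries behind each mean. Marker shape and colour give the length class, filled markers passed the read test, the solid line marks equal PSI and the dotted lines a dPSI of 10 points, and most points below the diagonal sit at high control PSI.

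A few exons were nearly absent in control ECs. The 54-nt exon of Sipa1l2, which encodes a protein that switches off Rap GTPases, had a PSI of 0.53% and 0.82% in the control libraries and of 25.6% and 19.6% in the NOVA2-overexpressing libraries (Fisher's exact, adjusted p = 2.96e-16). The 48-nt exon of Setd5, a chromatin regulator, went from 0.53% and 1.85% to 16.5% and 20.3% (Fisher's exact, adjusted p = 3.68e-09). Both were close to absent in each control library and were included in a minority of transcripts in each NOVA2-overexpressing library. The largest dPSI among the members, 32.6 points, belonged to the 105-nt exon of Etl4, with PSI values of 4.76%, 0%, 39.1% and 30.8%. It rested on as few as 11 reads in 1 library, and without control replicate 2 its adjusted p was 0.258 in Fisher's exact test.

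At the other end, 22 exons had no skipping read in either control library. Among them the 147-nt exon of Cblb, a ubiquitin ligase, stood at 85.5% and 91.4% in the NOVA2-overexpressing libraries (Fisher's exact, adjusted p = 6.25e-14), and the 126-nt exon of Adcy4, an adenylyl cyclase of vascular cells, at 87.1% and 90.4% (Fisher's exact, adjusted p = 5.19e-18). Skipping of both was therefore read in the NOVA2-overexpressing libraries alone. The depth of the control libraries allows skipping of up to 1.03% to 18.8% over these 22 exons, as 3 reads would make, and this limit covers counting error only. In 17 exons no skipping read was found in either NOVA2-overexpressing library.

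Microexons made up 23 of the members. Of these, 8 were higher and 15 lower with NOVA2, 17 reached 10 points (7 higher and 10 lower), and 17 passed the read test (7 higher and 10 lower). The 3-nt exon of Cyth1, an exchange factor for ARF GTPases, is known to change the phosphoinositide preference of its PH domain. Its PSI was 80.4% and 75.3% in the control libraries and 59.1% and 56.4% in the NOVA2-overexpressing libraries (Fisher's exact, adjusted p = 1.88e-05), so that the closest libraries of the 2 groups lay 16.2 points apart.

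Both microexons of Macf1, a spectraplakin that links actin to microtubules, fell. The 9-nt exon went from 93.7% and 92.0% to 74.6% and 71.5% (Fisher's exact, adjusted p = 4.30e-09), and the 18-nt exon from 46.9% and 45.5% to 35.5% and 31.3% (Fisher's exact, adjusted p = 1.48e-04). They are separate exons of the gene and started from different levels. The 12-nt exon of Supt5h (Supt5 in current nomenclature), a subunit of the elongation factor DSIF, was almost constant in control ECs at 98.3% and 98.0% and was skipped more with NOVA2, at 86.5% and 87.6% (Fisher's exact, adjusted p = 2.31e-23).

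The 27-nt exon of Sgce, the epsilon-sarcoglycan of the dystrophin-associated complex, had PSI values of 87.8%, 91.3%, 77.2% and 75.4% in control replicates 1 and 2 and NOVA2-overexpressing replicates 1 and 2. In the same order the 27-nt exon of Ctage5 (Mia2), which acts in export from the endoplasmic reticulum, had 56.9%, 61.3%, 45.3% and 46.0%. For the 27-nt exon of Mark3, a kinase that loosens microtubule-associated proteins, the values were 82.7%, 82.8%, 71.5% and 72.1%. All 3 fell, by 11.0 to 13.4 points, and the highest of their adjusted p-values was 2.36e-06 in Fisher's exact test.

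Microexons of 3 other cytoskeletal genes had a lower PSI by 10 points or more without passing the read test. The 21-nt exon of Nav3 and the 9-nt exon of Nav2, which encode microtubule-binding neuron navigators, differed by -14.4 and -10.5 points, with adjusted p-values of 0.0637 and 0.109 in Fisher's exact test. The 9-nt exon of Iffo1, an intermediate filament protein, differed by -13.0 points (Fisher's exact, adjusted p = 0.146), and by -8.32 points without NOVA2-overexpressing replicate 2. At 24 to 87 reads per library these 3 differences were not detectable by the read test.

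Among the microexons that gained, the 15-nt exon of Spna2 (Sptan1), the alpha-II spectrin of the membrane skeleton, was the best covered. Its PSI was 25.0% and 27.7% in control ECs and 40.1% and 38.2% in NOVA2-overexpressing ECs, from at least 963 reads per library (Fisher's exact, adjusted p = 1.37e-19). The 24-nt exon of Rapgef6, an exchange factor that activates Rap GTPases, rose from 10.4% and 9.99% to 23.9% and 32.2% (Fisher's exact, adjusted p = 3.05e-05). Of the 7 microexons that gained 10 points, 6 lay below 20% in control ECs on average, and Spna2 was the seventh.

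The other gains came from fewer reads or rested more on 1 library. The 21-nt exon of Exoc1, a subunit of the exocyst, had PSI values of 0.87%, 3.74%, 9.39% and 18.3% (Fisher's exact, adjusted p = 1.08e-08), and its dPSI of 11.5 points was 7.08 without NOVA2-overexpressing replicate 2. For the 24-nt exon of Ocrl, the inositol phosphatase of Lowe syndrome, the values were 20.7%, 11.5%, 31.0% and 30.3%, and the adjusted p went from 9.72e-04 to 0.138 in Fisher's exact test without control replicate 2. The 21-nt exon of Arntl, the clock transcription factor BMAL1, had 2.78%, 6.40%, 19.1% and 17.1%. Its adjusted p was 0.0120 in Fisher's exact test and lay above 0.05 without control replicate 1 or without NOVA2-overexpressing replicate 1.

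For the 9-nt exon of Kif3a, a subunit of the heterotrimeric kinesin of cilia, the PSI was 12.4%, 4.03%, 20.2% and 17.4% (Fisher's exact, adjusted p = 0.0272). Its dPSI of 10.6 points was 6.41 without control replicate 2, and the call was lost without that library and without NOVA2-overexpressing replicate 1. The 21-nt exon of Kif21a, a kinesin that limits microtubule growth, stood at 17.2%, 18.5%, 25.2% and 30.8% and did not pass (Fisher's exact, adjusted p = 0.212).

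The 6 microexons under 10 points included well-covered ones. The 12-nt exon of Vps29, a retromer subunit, fell from 30.46% and 30.04% to 22.9% and 22.7% on at least 859 reads per library (Fisher's exact, adjusted p = 1.58e-07). In Dnm2, the dynamin of endocytosis, the 12-nt exon rose from 42.6% and 42.7% to 50.3% and 50.8% (Fisher's exact, adjusted p = 1.61e-04). The replicates of these 2 exons lay within 1 point of each other. Csnk1g3 and Tead1 also passed, with dPSI values of -8.74 and -9.39 points, the latter losing its call in 3 of the 4 fits with a library left out, and Myo6 and Dst did not, with adjusted p-values of 0.0803 and 0.0851 in Fisher's exact test.

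**Figure D2:**
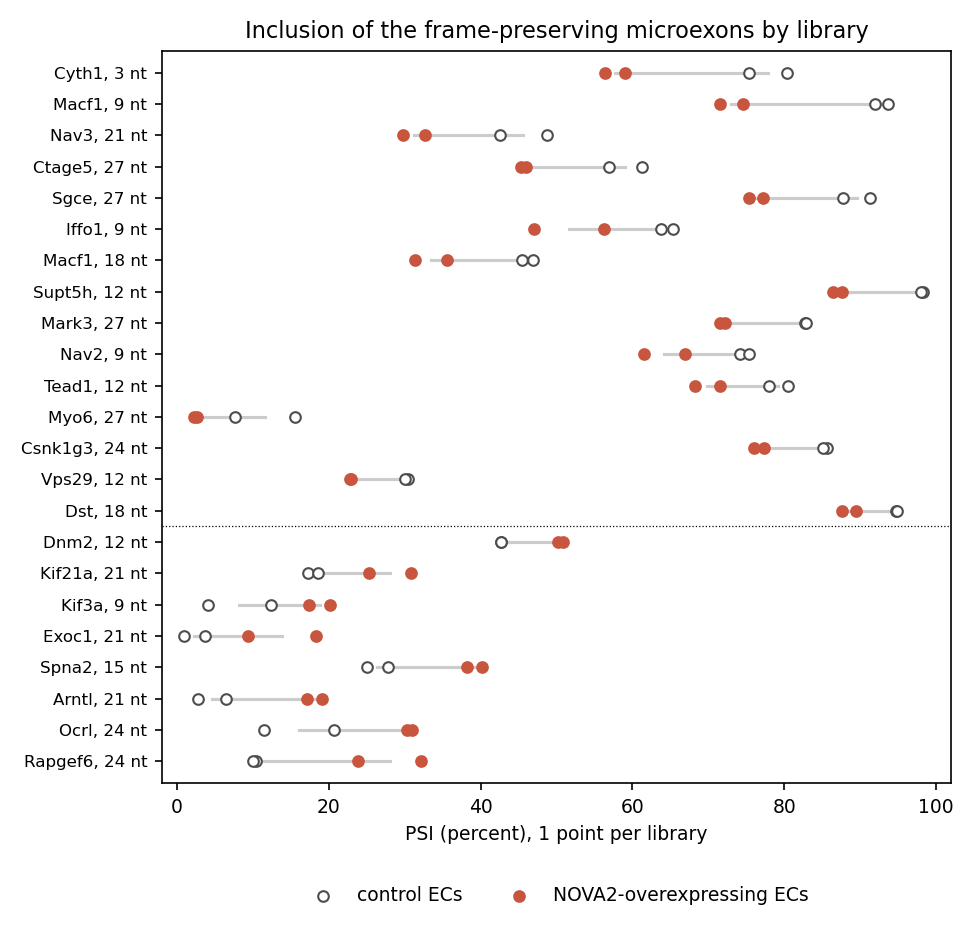
PSI (percent, horizontal axis) of the 23 frame-preserving microexons, 1 point per library, with open circles for the 2 control and filled circles for the 2 NOVA2-overexpressing libraries and a grey line between the group means. The 15 exons above the dotted line had lower and the 8 below it higher PSI with NOVA2, and 6 of those 8 lay below 20% in control ECs on average.

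Short exons of 28 to 99 nt numbered 137, of which 58 were higher and 79 lower with NOVA2. At 10 points or more they were 34 and 50, and 103 passed the read test. Among the largest losses was the 84-nt exon of Sh3pxd2a, the podosome scaffold Tks5, which had PSI values of 76.7% and 77.4% in control ECs and of 44.7% and 53.0% in NOVA2-overexpressing ECs (Fisher's exact, adjusted p = 2.31e-16). The closest libraries of the 2 groups lay 23.8 points apart in this exon.

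The exon of Epn1, a clathrin adaptor that binds ubiquitinated cargo, was the most deeply read of the named short exons, with at least 1194 reads per library. Its 75 nt were included at 89.8% and 89.7% in control ECs and at 68.2% and 70.5% in NOVA2-overexpressing ECs (Fisher's exact, adjusted p = 5.28e-86). The 81-nt exon of Myo5a, an actin-based organelle motor, fell by 22.8 points, the 48-nt exon of Uap1, an enzyme of UDP-GlcNAc synthesis, by 20.6 points, and the 33-nt exon of Unc5b, a netrin receptor of vessels, by 18.3 points. In Unc5b the NOVA2-overexpressing libraries lay further apart, at 67.9% and 78.6%, than the control libraries, at 91.2% and 91.9%.

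Exons of 57 nt in Arhgef12, a RhoA exchange factor, and in Sorbs2, an adaptor of focal adhesions, fell by 17.3 and 15.5 points. In Arhgef12 the PSI was 62.6%, 61.7%, 44.0% and 45.7%, and in Sorbs2 it was 33.9%, 37.8%, 19.8% and 20.7%. The lowest control value lay 16.01 points above the highest NOVA2 value in Arhgef12 and 13.1 points above it in Sorbs2.

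Of the short exons that gained, the 51-nt exon of Ptprm, a receptor phosphatase of endothelial junctions, had PSI values of 19.5%, 20.8%, 37.7% and 49.2% (Fisher's exact, adjusted p = 2.64e-04). The 84-nt exon of Magi1, a scaffold of the same junctions, had 47.1%, 37.0%, 63.0% and 69.5% (Fisher's exact, adjusted p = 4.91e-05). They rose by 23.3 and 24.2 points, on at least 51 and 50 reads per library, and the adjusted p of Magi1 was 0.0669 in Fisher's exact test without control replicate 2. The 57-nt exon of Cast, the calpain inhibitor calpastatin, was covered better and rose from 35.7% and 35.6% to 55.9% and 54.1% (Fisher's exact, adjusted p = 1.43e-12).

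The 96-nt exon of Spice1, a protein of spindles and centrioles, rose from 69.2% and 75.2% to 93.9% and 85.9% (Fisher's exact, adjusted p = 3.70e-05). The 33-nt exon of Pikfyve, the kinase that makes PI(3,5)P2, stood at 25.2%, 15.6%, 32.6% and 45.5%. Its dPSI of 18.6 points was 12.2 without NOVA2-overexpressing replicate 2, and its adjusted p went from 0.00924 to as much as 0.216 in Fisher's exact test, the call being lost without that library and without control replicate 2.

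Long exons of 100 nt or more numbered 129, with 48 higher and 81 lower, of which 24 and 41 reached 10 points, and 99 passed the read test. The 108-nt exon of Lrch3, a leucine-rich repeat protein, showed the largest loss of all members. Its PSI was 85.0% and 84.2% in control ECs and 57.4% and 50.5% in NOVA2-overexpressing ECs (Fisher's exact, adjusted p = 4.65e-20). The 120-nt exon of Phldb2, a phosphoinositide-binding protein that anchors microtubules at the cell cortex, fell from 84.9% and 86.3% to 59.3% and 61.6% on at least 770 reads per library (Fisher's exact, adjusted p = 2.56e-65).

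The 126-nt exon of Mll5 (Kmt2e), a chromatin factor, fell from 91.6% and 94.6% to 73.2% and 70.8% (Fisher's exact, adjusted p = 5.36e-16). The 195-nt exon of Mtss1, which bends membranes and binds actin, fell by 18.4 points from 60.1% and 57.3% to 43.1% and 37.5% (Fisher's exact, adjusted p = 1.89e-13). For the 183-nt exon of Zfyve26, a phosphoinositide-binding protein of endosomes and autophagy, the PSI fell by 22.0 points, with the NOVA2-overexpressing libraries at 68.0% and 81.5%. In Ccdc136, 3 neighbouring exons of 159, 171 and 186 nt fell together, by 21.9, 25.1 and 18.2 points. Whether the same transcripts lack all 3 was not measured, so they are not taken as independent, and the adjusted p of the 186-nt exon was 0.171 in Fisher's exact test without control replicate 1.

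Among long exons that passed both thresholds with no VLOW library, the named gains reached 18.7 points and the named losses 30.7 points. The 2061-nt exon of Prrc2b, an RNA-associated protein, rose from 33.4% and 32.2% to 45.00% and 49.97% on at least 470 reads per library (Fisher's exact, adjusted p = 5.29e-12), and the 159-nt exon of Tmc8 rose from 85.6% and 81.8% to 97.8% and 97.5% (Fisher's exact, adjusted p = 2.66e-04). The 111-nt exon of Mga, a partner of MAX, and the 120-nt exon of Zfp202, a zinc finger repressor, rose by 13.6 and 13.5 points. The call of Mga was lost without control replicate 2 (Fisher's exact, adjusted p = 0.0640), and that of Zfp202 in 3 of 4 fits with a library left out.

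The 2346-nt exon of Akap9, a scaffold of centrosome and Golgi, was at 73.3% and 89.3% in control ECs, and no skipping read was found in either NOVA2-overexpressing library. Its dPSI of 18.7 points was 10.7 without control replicate 1. In Klra4 the 207-nt exon had PSI values of 58.4%, 43.0%, 67.7% and 63.5%. Its dPSI of 14.9 points was 22.7 without control replicate 1 and 7.21 without control replicate 2, where the call was lost (Fisher's exact, adjusted p = 0.131). Klra4 belongs to a family of near-identical receptor genes of natural killer cells among which short reads may be shared, so its values are uncertain.

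**Figure D3:**
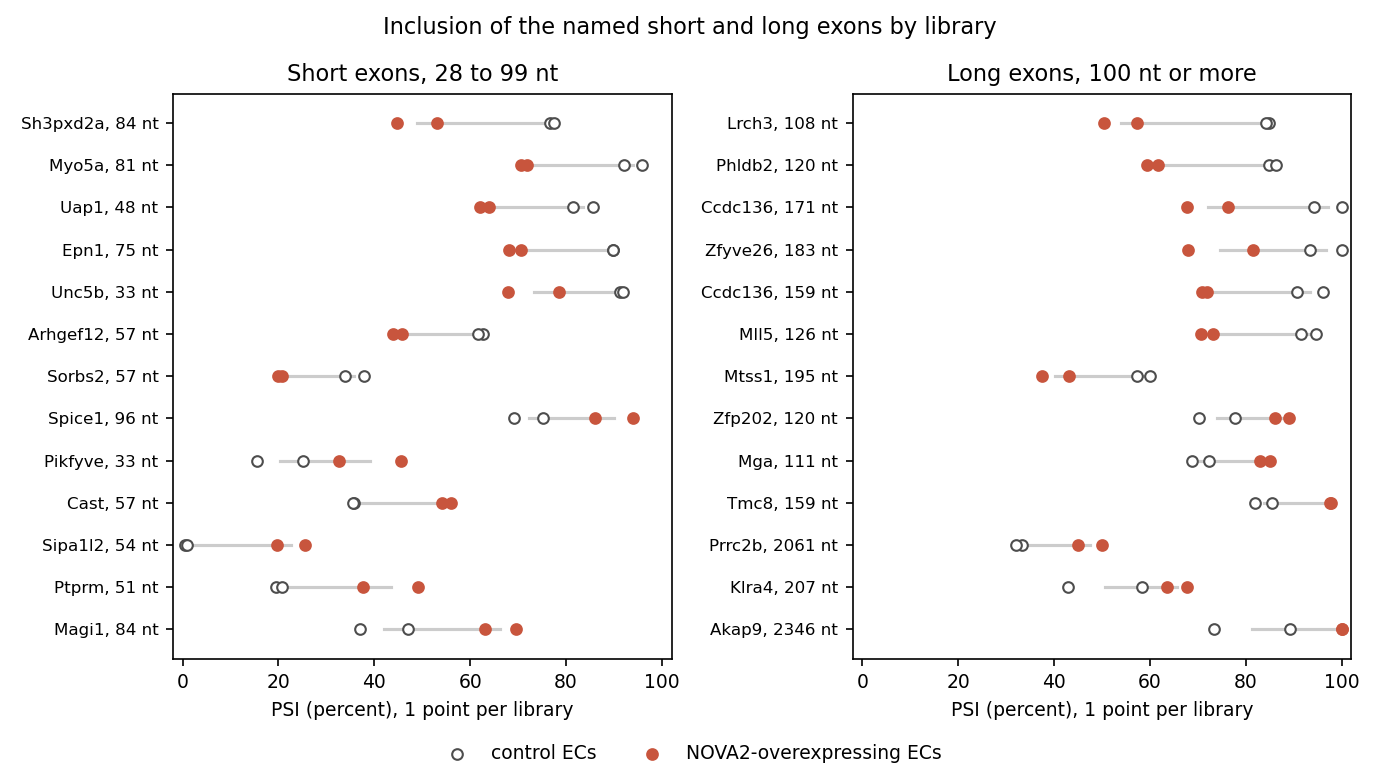
PSI (percent, horizontal axis) of the named short exons (left) and long exons (right), 1 point per library, open circles for the 2 control and filled circles for the 2 NOVA2-overexpressing libraries, with a grey line between the group means. The short exons range from Sh3pxd2a, with a dPSI of -28.3 points, to Magi1, with 24.2 points, and the long exons from Lrch3, with -30.7 points, to Akap9, with 18.7 points.

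By the classes of vast-tools, which grade exons S, C1, C2 and C3 by the growing complexity of their surroundings and keep MIC for its microexon module and ANN for its annotation module, the members were 172 S, 23 C1, 28 C2, 23 C3, 10 MIC and 33 ANN exons. Simple exons (S) held 66 higher and 106 lower exons, of which 36 and 68 reached 10 points. The ANN exons were 18 higher and 15 lower, and at 10 points 11 were higher and 3 lower. Their median PSI was 91.0% in control ECs, and the library with the fewest reads had a median of 52 reads over them, against 112 over the S exons. C1 exons were 6 higher and 17 lower, C2 exons 14 higher and 14 lower, C3 exons 7 higher and 16 lower, and MIC exons 3 higher and 7 lower. The read test was passed by 136 S, 15 C1, 21 C2, 13 C3, 8 MIC and 26 ANN exons.

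**Figure D4:**
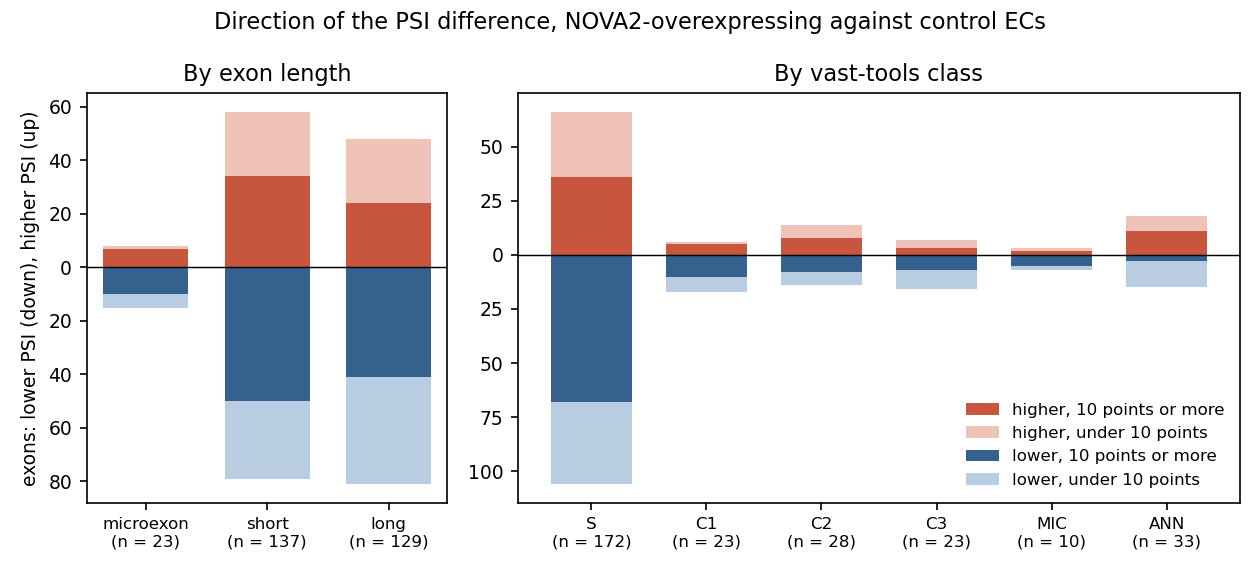
Number of frame-preserving exons with higher PSI (above 0) and lower PSI (below 0) in NOVA2-overexpressing than in control ECs, by length class (left) and by vast-tools class (right), with dark bars for 10 points or more and light bars for less. Lower exons outnumber higher ones in each length class, while in the ANN class 11 exons gained and 3 lost 10 points or more.

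Grouped by what their genes do, the members could be described by 7 lists of genes. The lists were drawn up from genes whose splicing in these libraries was already known, so their counts are not independent evidence of size or direction. The counts passing the read test stand beside 75.8% of all members and 55.9% of all events. Among 18 exons of small GTPase regulators, 5 were higher and 13 lower, and 14 passed the read test. Beside Cyth1, Rapgef6 and Sipa1l2, the 57-nt exon of Myo9a, an unconventional myosin, had a dPSI of 21.5 points, from 22.2%, 35.4%, 49.8% and 50.9%, and its call was lost with any library left out.

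Of 23 exons in genes of actin, spectrin and focal adhesions, 6 were higher and 17 lower, and 20 passed the read test. Etl4, Lrch3 and Sh3pxd2a, given above, were among those with the largest differences. Of 26 exons in genes of microtubules, motors, centrosomes and cilia, 12 were higher and 14 lower, and 17 passed. There the largest were the 9-nt exon of Macf1, that of Akap9 and 2 exons of Spice1.

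Among 20 exons of membrane traffic and phosphoinositide genes, 8 were higher and 12 lower, and 17 passed the read test. The 36-nt exon of Plcb4, a phospholipase C, had PSI values of 26.7%, 40.0%, 57.4% and 56.5%, a dPSI of 23.6 points. It passed on as few as 29 reads in 1 library, and the call was lost in 3 of 4 fits with a library left out. Of 18 exons of surface receptors, adhesion and junction genes, 9 were higher and 9 lower, and 14 passed. The 108-nt exon of Gphn (gephyrin) fell by 19.5 points and the 114-nt exon of Kidins220, a membrane scaffold for neurotrophin and VEGF receptors, by 19.3 points, from 97.5% and 97.1% to 77.7% and 78.3%.

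For transcription and chromatin genes 20 of 21 exons passed the read test, with 7 of the 21 higher and 14 lower. The 66-nt exon of Ino80e, a subunit of the INO80 remodeller, fell from 95.7% and 95.8% to 78.5% and 77.4% on at least 1043 reads per library (Fisher's exact, adjusted p = 1.62e-84). The 156-nt exon of Pbrm1, a subunit of the PBAF remodeller, fell by 17.6 points from 44.8% and 51.4%. Of 20 exons of kinases, phosphorylation signalling and ubiquitin enzymes, 7 were higher and 13 lower, and 17 passed.

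In that last group the 54-nt exon of Shc1, the adaptor between receptor tyrosine kinases and Ras, had PSI values of 98.3% and 98.7% in control ECs and of 83.0% and 82.2% in NOVA2-overexpressing ECs (Fisher's exact, adjusted p = 2.65e-65). The 63-nt exon of Kctd17, a substrate adaptor of ubiquitin ligases, fell by 14.6 points. The 51-nt exon of Phka1, a subunit of phosphorylase kinase, and the 132-nt exon of Huwe1, a ubiquitin ligase, had dPSI values of -19.5 and -15.4 points. The call of Phka1 was lost without control replicate 2, and that of Huwe1 without control replicate 1, where its dPSI was -9.04 points. The remaining 143 exons, in no list, were 60 higher and 83 lower, and 100 passed.

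The frame-preserving exons of 1 gene did not all move the same way. In 19 genes with more than 1 member, 43 exons in all, 8 genes held both higher and lower exons, 6 held lower and 5 higher exons alone. In Atxn2, an RNA-binding protein of the ataxin family, the 210-nt exon fell from 89.4% and 93.2% to 74.2% and 77.2% (Fisher's exact, adjusted p = 1.03e-11). Its 54-nt exon rose from 24.1% and 22.6% to 29.5% and 31.9% (Fisher's exact, adjusted p = 0.00788).

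In Cblb the 147-nt exon fell by 11.5 points and the 132-nt exon rose by 12.2 points, from 23.7% and 20.5% to 34.0% and 34.6% (Fisher's exact, adjusted p = 0.0117). In Map4k4, a kinase that regulates focal adhesions, the 192-nt exon fell from 74.9% and 69.5% to 60.9% and 60.5%, and the 225-nt exon rose from 34.6% and 36.4% to 41.6% and 42.4%. In Dst, a spectraplakin related to Macf1, the 111-nt exon fell by 8.75 points and the 72-nt exon rose by 9.73 points. The calls of the rising exons of Atxn2, Cblb and Map4k4 were lost in 2, 2 and 1 of the 4 fits with a library left out.

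In Spna2 the 60-nt exon rose like the 15-nt one, from 34.1% and 33.5% to 45.7% and 44.6% (Fisher's exact, adjusted p = 6.49e-14). In Tead1, the DNA-binding partner of YAP, the 12-nt and 63-nt exons had dPSI values of -9.39 and -14.5 points, and the latter was -8.95 points without NOVA2-overexpressing replicate 2. In Smad4, the common mediator of TGF-beta signalling, neighbouring exons of 117 and 120 nt had dPSI values of -12.1 and -8.53 points from between 98.0% and 98.5% in the control libraries. No 2 member exons overlapped.

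The mean PSI crossed 50% between the groups for 29 exons, 16 of them toward skipping and 13 toward inclusion. For 20 of these, 10 in each direction, both libraries of a group lay on the same side, and 17 of the 20 passed the read test. Toward skipping they included the exons of Mtss1, Arhgef12 and Ctage5 named above and the 48-nt exon of Map2k7, a kinase upstream of JNK, at 50.6%, 51.8%, 42.8% and 41.5% (Fisher's exact, adjusted p = 0.0300). Toward inclusion they included Cast, Magi1, Plcb4 and Dnm2 and the 267-nt exon of Fgfr1, a receptor of fibroblast growth factors, at 45.8%, 42.8%, 53.2% and 53.0% (Fisher's exact, adjusted p = 6.21e-05). The 95% Wilson interval of at least 1 library covered 50% for 17 of the 20, and of none for Mtss1, Ctage5 and Cast, so for most of these exons the more frequent form is not settled in every library. The call of Map2k7 was lost with any library left out.

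The 33-nt exon of Ppfibp1, a liprin, crossed in the same direction from 38.1% and 40.6% to 51.8% and 52.1% (Fisher's exact, adjusted p = 6.42e-12), and its downstream intron is among those printed above. The 54-nt exon of Epb4.1l2 (Epb41l2), a linker between membrane and actin, rose from 26.4% and 26.3% to 41.3% and 44.4% (Fisher's exact, adjusted p = 1.65e-23), beside the downstream intron with 13 motifs. The 204-nt exon of Ccdc88a, the actin-binding protein girdin, fell by 17.2 points from 89.3% and 94.4% to 66.2% and 83.1%, and its dPSI was -8.77 points without NOVA2-overexpressing replicate 1. The 78-nt exon of Slc9a5, a sodium-proton exchanger, was at 35.3%, 37.0%, 21.3% and 19.3%, and its call was lost without control replicate 2 (Fisher's exact, adjusted p = 0.117).

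The motif YCAY in its 4 forms was counted on the transcript strand, overlapping copies included, in 3 windows, namely the exon itself and up to 200 nt of intron on either side of it. Shorter introns were counted whole. Upstream of the 101 exons that lost 10 points or more the mean density was 2.55 per 100 nt (SD 1.59), and upstream of the 65 exons that gained 10 points or more it was 1.57 (SD 0.955). Over 165294 annotated internal coding exons the same window gave 1.69 (SD 1.08). At least 1 motif was found in the windows before 100 of the 101 losing exons, 63 of the 65 gaining exons and 93.2% of annotated exons, so that a single match says little. At least 5 were found in 48.5%, 18.5% and 23.1%.

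Within the exon the densities were 2.49 per 100 nt for losing and 1.54 for gaining exons, against 1.71 for annotated exons, and at least 1 motif was found in 71.3%, 63.1% and 81.5% of them. Downstream they were 1.76 and 1.97, against 1.61, and at least 5 motifs were found in 26.7% and 38.5%, against 20.5%. The comparison motif YGAY, with G in place of the inner C, had upstream densities of 0.873 and 0.990. It was not counted over annotated exons and differs from YCAY in base content. It therefore cannot show whether the difference is particular to YCAY. Upstream densities of losing and gaining exons were also compared by length class. It was 2.85 against 1.5 for microexons (10 and 7 exons, and 2.06 without Supt5h, whose 20 motifs are the most), 2.78 against 1.71 for short exons (50 and 34) and 2.20 against 1.39 for long exons (41 and 24).

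Members under 10 points had upstream densities of 1.71 for 74 lower and 1.45 for 49 higher exons. The frame-shifting exons at 10 points or more showed 2.16 upstream of 81 losing and 1.58 upstream of 44 gaining exons. In 25-nt steps, the upstream density of the losing exons was 1.98 to 2.26 starts per 100 positions between 200 and 100 nt before the exon and 2.82 to 3.21 in the last 100 nt, while that of the gaining exons stayed between 1.23 and 2.00 over the whole window. These are descriptions of the sequence, with no test, and a motif is not a binding site.

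**Figure D5:**
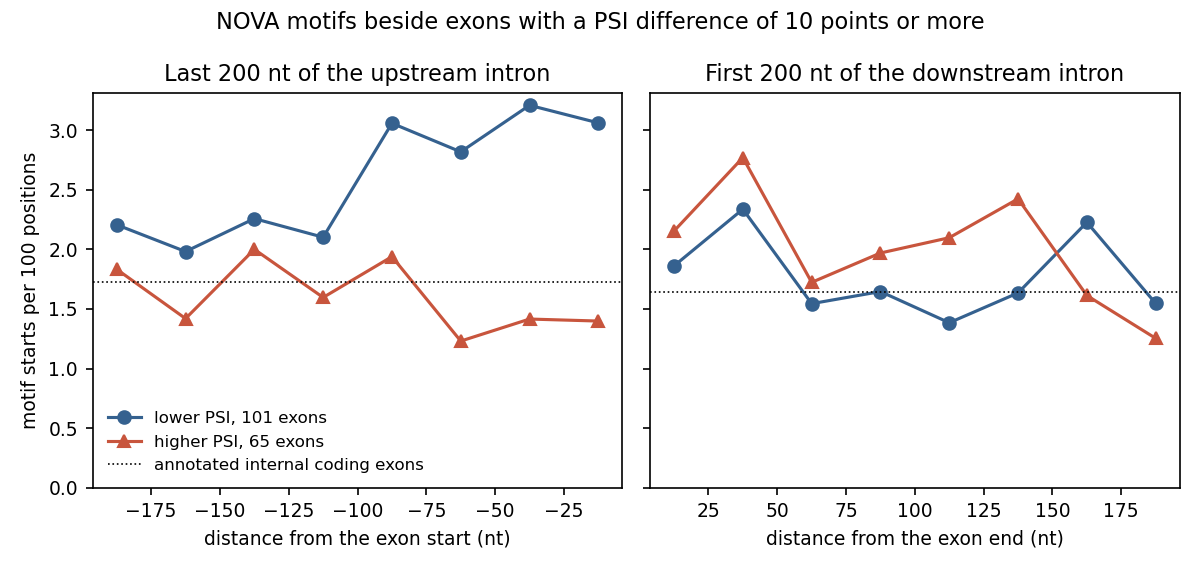
Starts of the 4 NOVA motifs per 100 positions (vertical axis) in 25-nt steps of the 200 nt before the exon (left) and the 200 nt after it (right), by distance from the exon in nt, for the 101 exons that lost (circles) and the 65 that gained (triangles) 10 PSI points or more. The dotted lines give the level over 165294 annotated internal coding exons, 1.72 upstream and 1.64 downstream, and in the last 100 nt before the exon the losing exons stand at 2.82 to 3.21 and the gaining ones at 1.23 to 1.94.

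In the GENCODE annotation of the same build, 230 of the 289 members matched a coding exon end to end, 25 an exon that is not wholly coding, and 34 matched no annotated exon. None of the 230 coding exons held a stop codon in frame, which follows from their annotation as coding and is no finding. They began at the first base of a codon in 115 cases and within a codon in 115. For 197 members an annotated intron of the same strand spanned the exon. That intron was not required to belong to the same gene or to join the neighbouring exons. The acceptor AG preceded all 289 exons, and GT followed 288 and GC 1. The members had a median length of 90 nt, from 3 to 2346 nt, and sat between introns with medians of 1736 nt upstream and 2024 nt downstream, against 1233 and 1162 nt for annotated internal coding exons. A length that is a multiple of 3 was found in 52.6% of the deposited cassette exons and in 41.0% of annotated internal coding exons.

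Just inside the 10-point threshold lay the exons of Mcoln1 (-10.05 points), S100a14 (10.12 points) and Kif21a (10.13 points), and just outside it those of Zmiz1 (-9.93 points), Snx11 (-9.86 points) and Tmem179b (-9.86 points). Of the 219 members that passed the read test, 128 passed with any 1 library left out and 91 lost the call in at least 1 of the 4 fits. In these fits 38 dPSI values moved by more than 1.5 times, while the authors' filter on the gap between libraries leaves no room for a change of direction.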

How the data were processed

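PSI was available for 2 control and 2 NOVA2-overexpressing libraries of moEC. The authors aligned the RNA-seq reads to the mm9 genome with vast-tools and deposited, per event and library, the PSI in percent, a coverage score and the corrected inclusion and exclusion reads, keeping events with an absolute difference of more than 5 points between every pair of libraries of the 2 groups. Read normalization beyond this and the tool's version are not given in the sources used here. The 12 value columns of other samples, 4 columns of merged replicates and the deposited difference were not used.

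From the files, dPSI was computed from the library PSI values, and the reads, rounded to whole numbers, were summed per group and compared by Fisher's exact test (scipy 1.17.1), with Benjamini-Hochberg adjustment over all 1075 events. An absolute dPSI of 10 points and an adjusted p of 0.05 were the thresholds. Deposited PSI and the ratio of these reads differed by at most 0.0352 points. The tests were checked on simulated reads, drawn with no spread between replicates and no filter for separated groups. That check therefore does not cover these features of the deposited events. Alternatives were limma 3.58.1 (R 4.3.3) on log2 ratios with 0.5 added to the reads, a quasi-binomial regression, a Cochran-Mantel-Haenszel test with the replicate number as a block, minimum scores or reads, PSI from summed reads, a threshold of 15 points, 1 exon per gene and leaving out each library.

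Sequences and exons came from the mm9 assembly and its GENCODE annotation, read with pysam 0.24.0 in Python 3.11.15, with windows of 200 nt. Limits for a count of 0 are 3 reads, cover counting error only, and ignore that the reads carry no molecular identifiers. The exons described by name were the microexons at 10 points or more, the 6 largest gains and losses among short and among long exons that passed both thresholds with no VLOW library, 6 exons selected by the study, and up to 4 of each gene list. The exons of Vps29, Dnm2, Csnk1g3, Tead1, Myo6 and Dst, of the other genes with several members, and of Setd5, Adcy4, Map2k7, Fgfr1, Ppfibp1, Epb4.1l2, Ccdc88a and Slc9a5 were named after their values were seen. The members, gene lists and tests were chosen with earlier results of these data known. Gene symbols are those of the table, 24 of which have a newer form. Some exons that the naming rule chose are not reported here.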

Additional observations from a re-analysis of the deposited data

How the results depend on the processing

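Leaving out a library could not turn a direction, since the deposited events all have separated libraries, and PSI from summed reads turned none of the exons named by length class or by the study. The counts at 10 points, 65 higher and 101 lower, became 40 and 84 with a score of OK or better in every library and 18 and 44 at a threshold of 15 points, and lay between 57 and 67 and between 92 and 107 with 1 library left out. They stayed within 1.5 times with LOW or better, PSI from summed reads and 1 exon per gene. The read test called 80 higher and 139 lower members. A quasi-binomial regression, which takes the spread between the replicates into account, called 28 and 50, while 188 of the 289 had an unadjusted p under 0.05 in it. Its spread rests on 4 libraries per exon and may fall below counting error. Close replicates, which the authors' choice of events favours, therefore make a pass easier. With limma 106 and 171 passed. No share over all events is given beside this count, so it is not read as particular to the members. With 1 library left out, 51 to 60 higher and 107 to 126 lower members passed, with the fewest higher calls without control replicate 2 (51) and without NOVA2-overexpressing replicate 1 (53). The labels number the replicates in each group, but nothing ties equal numbers together, and the differences between replicates of the 2 groups had a correlation of 0.00386 over all events. With the replicate number as a block, 73 higher and 131 lower members passed, also without a share over all events. The difference in upstream motif density, 0.983 per 100 nt, was 1.49 in the last 100 nt, 0.676 over all members and 0.908 without the exon with the most motifs, the last chosen after seeing the data, as was the value for microexons without Supt5h. The 43 members with a VLOW library passed the read test in 18 cases, against 133 of 137 at the highest score.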

Other observations

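The residues encoded by the 230 members that match coding exons leaned toward serine. Over 9319 whole codons 10.9% encoded serine, against 8.25% of the 3302621 whole codons of annotated internal coding exons with a length that is a multiple of 3. Proline made up 6.87% against 6.02%, and the hydrophobic and aromatic residues isoleucine, leucine, valine, phenylalanine, methionine, tryptophan and tyrosine together 26.5% against 30.3%. Acidic residues were at 12.5% against 12.3% and basic residues at 11.6% against 11.3%. The codons of all exons were pooled, so long exons weigh more than short ones. Codons of 1 exon are not independent, and no test was made.

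The exons that lost and those that gained 10 points or more had similar lengths, with medians of 81 and 84 nt. Of the 101 losing exons, 86 matched a coding exon and 7 no annotated exon, and of the 65 gaining exons 49 and 10 did. A coding exon that begins at the first base of a codon was found in 46 of the 86 losing and in 16 of the 49 gaining exons. An annotated intron of the same strand spanned 79 losing and 47 gaining exons, which need not mean that their skipping is annotated.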
